A study of Mus musculus with 4 samples.

Results

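The data describe 9 transcription factors that set and maintain the hepatocyte lineage, chosen by name and each found once among the 24421 gene symbols of the deposited table. They are Hnf4a, Foxa1, Foxa2, Foxa3, Cebpa, Cebpb, Onecut1, Onecut2 and Prox1. Liver RNA came from mice after hepatectomy, the removal of liver tissue, in 2 groups of 2 libraries. The control mice were given fibrin gel alone, and the gelADSC mice were given fibrin gel that carried ADSC, the usual abbreviation for adipose-derived stem cells, so both groups share the operation and the gel. The sources used here do not give mouse strain, age, the time after surgery or the donor of the ADSC. They also leave unsaid whether the libraries of a group came from separate animals, so the p-values measure only the spread between these libraries, which may be technical. Values are FPKM, fragments scaled to gene length and library depth, and libraries carry the numbers of the table's columns (control 1 and 3, gelADSC 2 and 3).

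HNF4A is an orphan nuclear receptor that binds the control regions of a large part of the genes a hepatocyte expresses. The forkhead proteins FOXA1, FOXA2 and FOXA3 are pioneer factors, able to bind DNA in closed chromatin, and open liver genes during development. C/EBPα and C/EBPβ are basic leucine zipper proteins with shared DNA sites. C/EBPα is known for restraining hepatocyte division and driving metabolic genes, and C/EBPβ for acute phase genes and for liver growth after hepatectomy. ONECUT1 (also called HNF6) and ONECUT2 are cut-homeodomain proteins of the liver and bile duct lineages, and PROX1 is a homeodomain protein of hepatocytes and of lymphatic endothelium that acts as a co-repressor of HNF4A and LRH-1. These factors are known to bind one another's promoters.

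Because of that cross-binding, the start regions of the genes are shown for the 2 members that rose most in the gelADSC group by the log2 measure (Onecut1 and Cebpa) and for the 2 that did not pass the test but whose start region holds a ONECUT core (Hnf4a and Foxa2). Each runs 5′ to 3′ on the gene's strand from 250 bases before to 50 bases after the RefSeq start, in build GRCm38.p6. Capitals mark ATCAAT or its reverse complement ATTGAT, the ONECUT core searched for.
Onecut1 (chr9:74861671-74861970, plus strand): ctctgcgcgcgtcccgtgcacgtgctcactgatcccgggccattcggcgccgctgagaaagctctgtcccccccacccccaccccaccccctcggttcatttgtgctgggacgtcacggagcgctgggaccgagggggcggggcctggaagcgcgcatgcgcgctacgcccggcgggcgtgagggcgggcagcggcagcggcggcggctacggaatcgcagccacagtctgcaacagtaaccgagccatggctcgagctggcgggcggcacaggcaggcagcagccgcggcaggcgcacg
Cebpa (chr7:35119043-35119342, plus strand): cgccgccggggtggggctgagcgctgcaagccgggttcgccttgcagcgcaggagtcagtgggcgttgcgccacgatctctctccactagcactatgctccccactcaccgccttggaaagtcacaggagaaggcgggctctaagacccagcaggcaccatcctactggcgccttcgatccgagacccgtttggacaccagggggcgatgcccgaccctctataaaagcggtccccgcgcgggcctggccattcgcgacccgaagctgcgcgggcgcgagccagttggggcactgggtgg
Hnf4a, upstream start (chr2:163506607-163506906, plus strand): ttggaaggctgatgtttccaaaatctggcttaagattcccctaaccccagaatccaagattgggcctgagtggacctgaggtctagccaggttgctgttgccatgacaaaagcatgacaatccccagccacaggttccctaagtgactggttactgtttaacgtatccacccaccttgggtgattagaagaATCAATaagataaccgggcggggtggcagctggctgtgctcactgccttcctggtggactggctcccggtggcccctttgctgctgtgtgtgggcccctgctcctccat
Foxa2, upstream start (chr2:148046920-148047219, minus strand): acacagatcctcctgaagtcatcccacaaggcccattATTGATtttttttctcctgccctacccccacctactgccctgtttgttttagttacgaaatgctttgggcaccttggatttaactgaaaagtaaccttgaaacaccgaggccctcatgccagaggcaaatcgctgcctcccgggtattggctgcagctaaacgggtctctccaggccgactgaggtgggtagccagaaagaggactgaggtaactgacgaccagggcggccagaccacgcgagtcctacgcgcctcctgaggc
The core lay at bases -59 to -54 of Hnf4a and -213 to -208 of Foxa2, counted from the start as 0. It occurs in 7.54% of 32851 start regions of this length. A FOXA motif (TGTTTAC, both strands, in 3.65% of start regions) was found in the start region of Foxa1 itself, at -141 to -135. A C/EBP motif (TTGCNNAA, 10.8%) and an HNF4 motif (CAAAGTCCA, 0.475%) were found in none of the 12 start regions searched, which belong to 8 of the 9 genes. These are matches of letters and not evidence of binding. Hnf4a has 2 RefSeq starts in that table, the upstream one known for its use in pancreas and fetal liver, and the deposited table has 1 value per gene, so transcripts from the 2 starts are not separated here.

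Cebpa, Onecut1 and Prox1 rose in the gelADSC group, and the other 6 factors did not pass the test. Cebpa was 2.69-fold higher by the ratio of group means, Prox1 3.05-fold and Onecut1 9.90-fold. Hnf4a, the FOXA genes, Cebpb and Onecut2 had log2 changes between -0.22 and 0.13. The test was limma on log2(FPKM + 1) over the 11070 genes whose mean reached 1 FPKM, two-sided with Benjamini-Hochberg adjustment and a threshold of 0.05, and all 9 members passed that filter on their own levels. Of all tested genes 6.92% were called higher and 17.5% lower, against 3 of 9 members (33.3%) higher and 0 lower. The members were chosen with earlier results of these data known, so these shares are a description only. Groups without overlap are common here: 19.2% of tested genes had both gelADSC values above both controls, 50.5% had them below, 69.8% in either direction, against 3 members above and 0 below. No member reached an unadjusted p under 0.05 in the lower direction, and limma without a mean-variance trend also called 0 lower. The median log2 change of the members was 0.08, and that of all tested genes was -0.25. In tissue RNA of this kind, fewer cells of a type and less RNA per cell cannot be told apart.

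**Figure D1:**
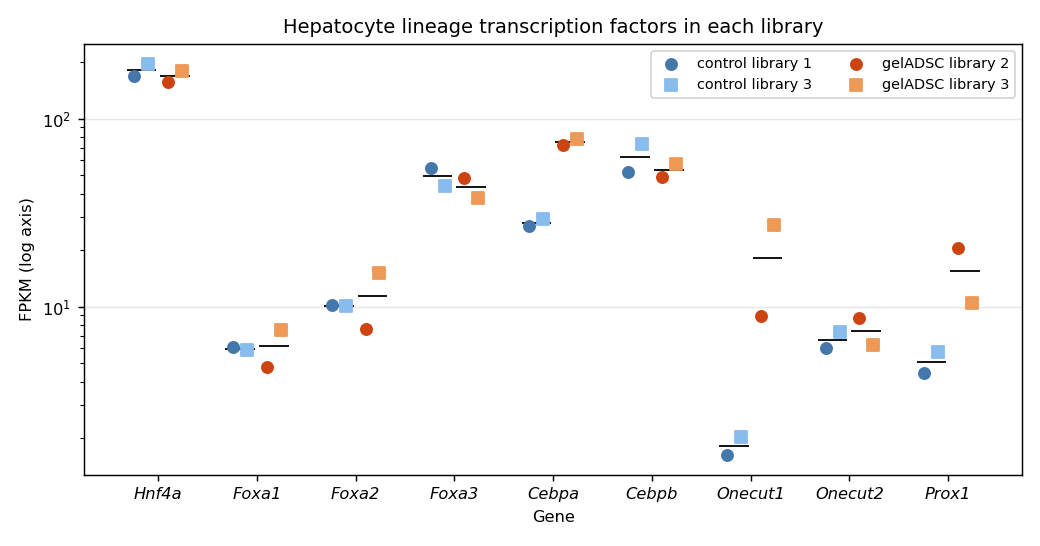
FPKM of each factor (log axis) in the 4 libraries, with a short line at each group mean of 2 libraries. Both gelADSC libraries lie above both control libraries for Cebpa, Onecut1 and Prox1, while the groups overlap for the other 6 factors.

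Libraries held roughly 18100000 to 24300000 reads, read from the smallest steps between low values and from exon lengths in GENCODE M21. Roughly 130 reads lay behind the lowest Onecut1 value, where counting alone gives an error of about 8.7%, and at least roughly 350 behind any value of the other members. Of the 9 hepatocyte markers on a fixed list, 8 were tested and 0 were called in either direction (3 higher and 1 lower at an unadjusted limma p under 0.05). With the filter at a mean of at least 5, 2 were called higher, and limma without a trend called 1. The count also changed when control library 3 or gelADSC library 3 was left out. Alb, albumin, read 28129 and 31907 FPKM in control and 22023 and 38330 FPKM in gelADSC. Ass1, a urea cycle enzyme of hepatocytes, read 0.151 FPKM or less in every library, while the other 8 markers read at least 213 FPKM. The reason for the low Ass1 values was not tested.

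Cebpa read 26.8 and 29.2 FPKM in control libraries 1 and 3 and 72.7 and 78.0 FPKM in libraries 2 and 3 of gelADSC. The libraries of each group were close to each other and the groups were far apart. The means were 28.0 ± 1.70 and 75.4 ± 3.78 FPKM (SD, n = 2 each), and the log2 change was 1.40 (SE 0.18, 95% interval 0.98 to 1.81, limma adjusted p = 0.00153). Measured from the all-gene median, the change was 1.64. Cebpa passed the test under all 11 alternative settings, with adjusted p from 9.29e-05 to 0.0333. Adipocytes also express Cebpa. The summed FPKM of 6 adipocyte markers was 105 and 53.5 in control and 43.0 and 12.6 in gelADSC, most of it Fabp4 (98.0 and 52.4 FPKM, then 38.6 and 12.5 FPKM), with 1 of 2 tested markers lower (Fabp4, a call lost in 5 of 11 alternatives, control 1 or 3 left out among them, with adjusted p up to 0.311) and 0 higher (0 higher also at an unadjusted limma p under 0.05). Of the other 5 markers, Adipoq, Plin1, Lep and Retn were listed at 0 in control library 3 and gelADSC library 3, and Cfd read 1.07 and 0.107 FPKM there. The part of adipocytes in the Cebpa values was not tested. Cebpb, its partner with the same DNA site, read 52.0 and 73.5 FPKM in control and 49.1 and 57.5 FPKM in gelADSC. These ranges overlap, and the log2 change of Cebpb was -0.22 (95% interval -0.72 to 0.29, limma adjusted p = 0.4996). In GENCODE M21 the exons of Cebpb share 312 of 1504 bases with Tmem189 on the opposite strand. Tmem189 read 99.2 and 50.6 FPKM in control and 6.39 and 8.93 FPKM in gelADSC. The libraries were made with a stranded kit, but whether the counting used strand is not stated, so reads of the 2 genes in that stretch cannot be told apart, and the part of Tmem189 in the Cebpb values was not tested.

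Cebpa and Cebpb stood in opposite order in the groups. The ratio of Cebpa to Cebpb FPKM was 0.516 and 0.398 in the control libraries and 1.48 and 1.36 in the gelADSC libraries. Cebpb was the higher of the pair in both controls, and Cebpa in both gelADSC libraries. A ratio within a library does not depend on how libraries are scaled. On the log2(FPKM + 1) scale the difference in this ratio was 1.61 (n = 2 each, exact permutation test, two-sided p = 0.333, which is the smallest p that 2 against 2 libraries allow). Of the summed FPKM of Cebpa, Cebpb, Cebpd, Cebpe and Cebpg, Cebpa made up 24.3% and 22.2% in control and 49.9% and 47.8% in gelADSC. Cebpb made up 47.1% and 55.9% in control and 33.7% and 35.2% in gelADSC.

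**Figure D2:**
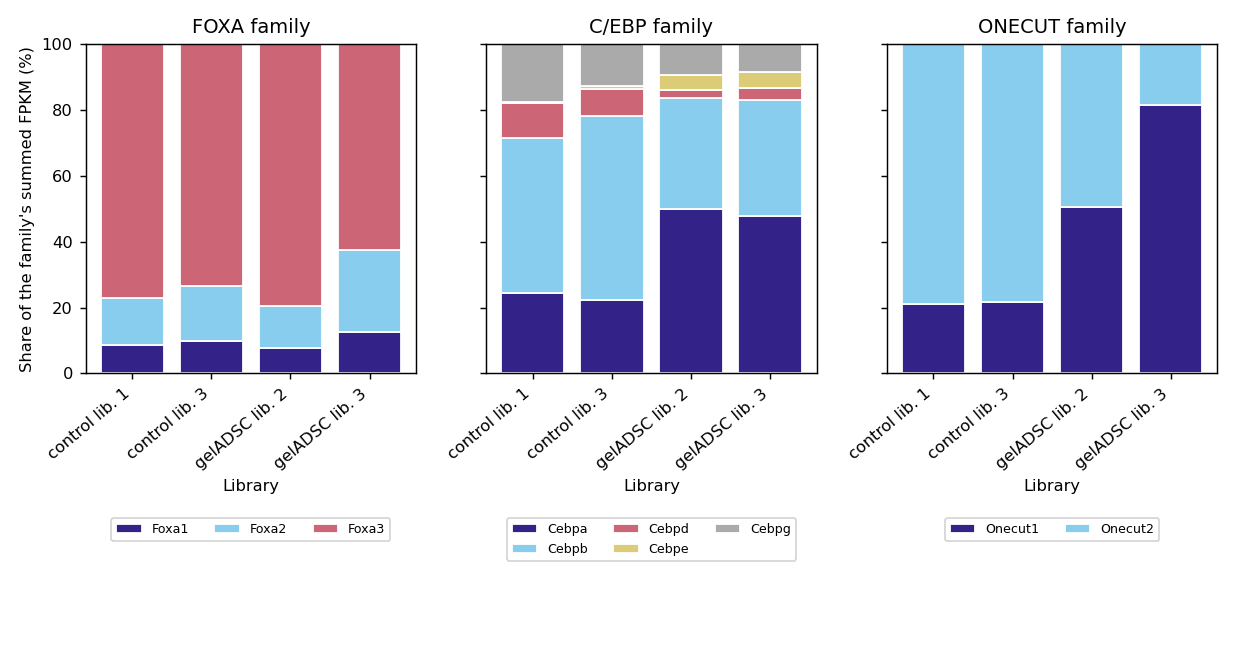
Share of each gene in the summed FPKM of its family (percent, stacked bars) in each library, for the FOXA, C/EBP and ONECUT genes. The Cebpa and Onecut1 shares were larger in both gelADSC libraries than in either control, and Foxa3 held the largest FOXA share in all 4 libraries.

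Relatives of the C/EBP members went different ways. Of 8 relatives of the members on a fixed list 5 were tested, with 1 higher (Cebpe), 1 lower (Cebpd) and a median log2 change of -0.19. Over all tested genes 6.92% were called higher and 17.5% lower, with a median of -0.25. Cebpe, known as a factor of granulocyte maturation, read 0.527 and 1.47 FPKM in control and 6.82 and 8.18 FPKM in gelADSC (log2 change 2.12, SE 0.27, limma adjusted p = 0.00142). Cebpe passed in all 10 alternatives in which it was tested. Beside it, the summed FPKM of 10 myeloid markers was 318 and 318 in control and 388 and 189 in gelADSC, with 0 of 10 called higher and 1 lower (2 higher and 1 lower at an unadjusted limma p under 0.05). Leaving out gelADSC library 3 gave 3 higher and 2 lower, and leaving out gelADSC library 2 gave 0 and 4. The part of myeloid cells in the Cebpe values was not tested. Cebpd, an acute phase partner of C/EBPβ, read 11.7 and 10.7 FPKM in control and 3.52 and 5.60 FPKM in gelADSC (log2 change -1.16, SE 0.24, limma adjusted p = 0.0106). That call was lost without a filter on low values and without control library 1, control library 3 or gelADSC library 2, with adjusted p up to 0.111. Cebpg, Cebpz and Ddit3 did not pass the test.

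Onecut1 read 1.62 and 2.03 FPKM in control and 8.88 and 27.3 FPKM in libraries 2 and 3 of gelADSC. The groups did not overlap, but library 3 was far above library 2. The means were 1.83 ± 0.287 and 18.1 ± 13.0 FPKM (SD, n = 2 each), and the log2 change was 2.57 (SE 0.42, 95% interval 1.60 to 3.53, limma adjusted p = 0.00425). Its adjusted p rose to 0.0573 when no filter on low values was used, and to 0.103 and 0.0517 when control library 1 or 3 was left out. The log2 change was 1.81 with library 3 of gelADSC left out and 3.33 with library 2 left out. Onecut2, its paralogue, read 6.03 and 7.30 FPKM in control and 8.72 and 6.23 FPKM in gelADSC (log2 change 0.13, 95% interval -0.38 to 0.65, limma adjusted p = 0.694). The ratio of Onecut1 to Onecut2 was 0.269 and 0.278 in control and 1.02 and 4.39 in gelADSC. Onecut2 thus had the higher level in both controls, the pair was nearly equal in gelADSC library 2, and Onecut1 led in library 3. In GENCODE M21 a long noncoding RNA gene on the same strand, Gm20649, shares 2171 of the 4113 exon bases of Onecut1, and the reads of the 2 genes may be split or joined depending on the annotation the authors used. Bile duct cells also express FOXA and ONECUT genes. Of 6 tested duct markers 3 fell, Cldn4, Spp1 and Sox9, and 0 rose (0 higher also at an unadjusted limma p under 0.05). The call of Spp1 was lost with median ratio scaling (limma adjusted p = 0.0552) and that of Cldn4 with no filter (0.0620). Cldn4 read 22.1 and 4.39 FPKM in the controls. The summed FPKM of the 8 listed duct markers was 192 and 315 in control and 57.9 and 49.6 in gelADSC. Most of it was Spp1 (150 and 298 FPKM, then 52.1 and 43.5 FPKM). The defining keratins Krt7 and Krt19 stayed under 5 FPKM in every library and were not called. The part of duct cells in the Onecut1 values was not tested.

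Prox1 read 4.44 and 5.78 FPKM in control and 20.7 and 10.5 FPKM in libraries 2 and 3 of gelADSC. All gelADSC values lay above the controls, here with library 2 the higher one. The means were 5.11 ± 0.948 and 15.6 ± 7.20 FPKM (SD, n = 2 each), and the log2 change was 1.38 (SE 0.30, 95% interval 0.68 to 2.07, limma adjusted p = 0.0146). Its call was lost in 6 of 11 alternatives. It was 0.0556 after median ratio scaling, 0.0557 after quantile normalization and 0.0821 when no filter was used. Leaving out a library gave 0.163 for control 1, 0.0643 for control 3 and 0.0558 for gelADSC 2. Since PROX1 is also a factor of lymphatic endothelium, markers of that cell type were read beside it. The summed FPKM of 6 such markers was 28.2 and 28.0 in control and 20.1 and 17.2 in gelADSC, and Ccl21a was listed at 0 in all 4 libraries. Of the 3 markers tested, Reln was called higher, Lyve1, which sinusoidal endothelium also expresses, was called lower, and Flt4 was not called. Both calls were lost in some alternatives, with adjusted p up to 0.272 for Reln and 0.157 for Lyve1. The part of lymphatic endothelium in the Prox1 values was not tested.

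Hnf4a had the highest level of the 9 factors in every library. It read 168 and 197 FPKM in control and 157 and 179 FPKM in gelADSC, and the ranges of the groups overlapped. The log2 change of Hnf4a was -0.12 (SE 0.20, 95% interval -0.57 to 0.33, limma adjusted p = 0.686). Hnf4aos, an antisense transcript that overlaps the Hnf4a gene but shares 0 exon bases with it, read 4.82 and 5.83 FPKM in control and 3.26 and 1.47 FPKM in gelADSC.

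Of the FOXA genes, Foxa3 was the most abundant and made up 62.5% to 79.6% of their summed FPKM. It read 54.9 and 44.1 FPKM in control and 48.6 and 37.7 FPKM in gelADSC (log2 change -0.20, 95% interval -0.68 to 0.29, limma adjusted p = 0.521). Foxa2 read 10.2 and 10.1 FPKM in control and 7.66 and 15.1 FPKM in libraries 2 and 3 of gelADSC (log2 change 0.08, 95% interval -0.57 to 0.74, limma adjusted p = 0.857). Foxa1 read 6.09 and 5.87 FPKM in control and 4.80 and 7.57 FPKM in gelADSC (log2 change 0.01, 95% interval -0.53 to 0.56, limma adjusted p = 0.972). For Foxa1 and Foxa2 the gelADSC libraries lay on either side of the controls, library 2 below and library 3 above. Their ratio varied less, with Foxa2 at 1.60 to 1.99 times Foxa1 in all 4 libraries. The summed FPKM of the 3 FOXA genes was 71.2 and 60.1 in control and 61.1 and 60.3 in gelADSC.

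**Figure D3:**
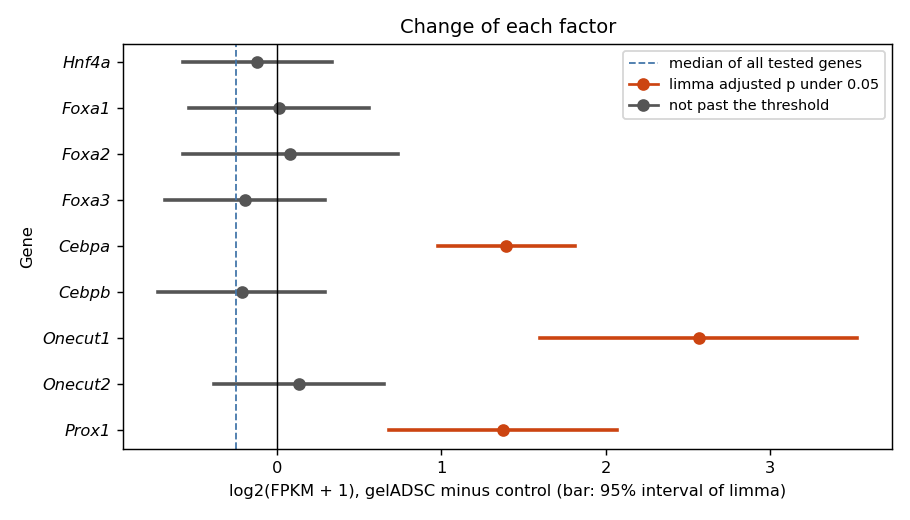
Log2 change of each factor, as the gelADSC mean of log2(FPKM + 1) less the control mean, with the 95% interval of limma (n = 2 libraries per group) and a dashed line at the median of all tested genes, -0.25. The intervals of Cebpa, Onecut1 and Prox1 lie above 0, and those of the other 6 factors include 0.

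By mean FPKM, the control order was Hnf4a, Cebpb, Foxa3, Cebpa, Foxa2, Onecut2, Foxa1, Prox1 and Onecut1. Of neighbours in that order, Cebpb and Foxa3 overlapped in their library values, as did Onecut2 and Foxa1. In gelADSC the order was Hnf4a, Cebpa, Cebpb, Foxa3, Onecut1, Prox1, Foxa2, Onecut2 and Foxa1. There the first 4 stood apart from their neighbours, and each neighbouring pair from Onecut1 downward overlapped.

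The 9 factors also varied between libraries of the same group. Between gelADSC libraries 2 and 3, 4 of 9 members differed by at least 0.5 on the log2(FPKM + 1) scale, where 12.5% of all tested genes did. They were Onecut1 (1.52, library 3 minus library 2), Foxa2 (0.89), Foxa1 (0.56) and Prox1 (-0.92). Between the control libraries 0 of 9 members differed by that much, where 16.1% of tested genes did. The largest control difference was that of Cebpb, at 0.49. Cebpa differed by 0.12 between the controls and by 0.10 between the gelADSC libraries.

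Genes with the profile most like each of the 3 factors that rose were ranked by the root mean square difference of log2(FPKM + 1) over the 4 libraries, each gene centred on its own mean. For Cebpa these were Fam89a (0.0301), Il1rap (0.0406) and Aadac (0.0476). Il1rap, the accessory protein of the interleukin-1 receptor, read 3.51 and 3.63 FPKM in control and 10.7 and 10.9 FPKM in gelADSC. For Prox1 they were Slc17a8 (0.107), Nr1h4 (0.109) and Chpt1 (0.120), and for Onecut1 Cyp2b9 (0.114), Prtn3 (0.185) and Pbk (0.235). Pbk, a mitotic kinase, read 0.122 and 0.101 FPKM in control and 2.27 and 13.4 FPKM in libraries 2 and 3 of gelADSC, a profile in which library 3 is the higher one as for Onecut1. With 4 libraries such ranks are a description only.

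Other transcription factors of the liver held calls in both directions, with counts near the all-gene shares for a list of this size. Of 15 on a fixed list 2 were called higher and 3 lower, with a median log2 change of -0.21 beside -0.25 for all tested genes. The all-gene shares were 6.92% higher and 17.5% lower. Nr1h4, the bile acid receptor FXR, read 16.2 and 20.4 FPKM in control and 57.1 and 36.2 FPKM in gelADSC (log2 change 1.28, SE 0.25, limma adjusted p = 0.00898). Tbx3, a repressor that acts in early liver development, read 2.99 and 2.96 FPKM in control and 11.4 and 5.52 FPKM in gelADSC (limma adjusted p = 0.0251). In both genes, as in Prox1, gelADSC library 2 was the highest. Tbx3 lost its call in 6 of 11 alternatives, those that left out control 1, control 3 or gelADSC 2 among them. Atf5, a stress-responsive leucine zipper factor, Creb3l3, a membrane-bound factor of lipid genes, and Gata6, a factor of liver specification, fell. Their log2 changes were -0.94, -0.92 and -0.91 (limma adjusted p = 0.0120, 0.0192 and 0.0164). The calls of Atf5 and Creb3l3 were lost with median ratio scaling. Creb3l3 also lost its call with quantile normalization and with no filter, and Gata6 with no filter. This list held 0 calls without control library 1 (adjusted p up to 0.120 for Nr1h4 and 0.175 for Tbx3), 1 higher and 1 lower with median ratio scaling or without gelADSC library 2, and 1 lower with no filter.

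Among cofactors and regulators of the members 2 of 13 tested genes fell and 0 rose (1 higher at an unadjusted limma p under 0.05). Their median log2 change was -0.05, beside -0.25 for all tested genes, of which 17.5% were called lower and 6.92% higher. Nr0b2, which encodes SHP, a corepressor of HNF4A and LRH-1, read 66.3 and 70.7 FPKM in control and 24.3 and 28.0 FPKM in gelADSC (log2 change -1.36, SE 0.19, limma adjusted p = 0.00193). It passed under all 11 alternatives. Trib1, an adaptor that brings C/EBPα protein to degradation, read 20.6 and 17.3 FPKM in control and 11.9 and 7.31 FPKM in gelADSC (log2 change -0.94, SE 0.25, limma adjusted p = 0.0283). That call was lost in 6 of 11 alternatives, both scalings and control libraries 1 and 3 and gelADSC library 3 among them, with adjusted p up to 0.198. Median ratio scaling gave 2 higher and 1 lower, quantile normalization 1 and 1.

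**Figure D4:**
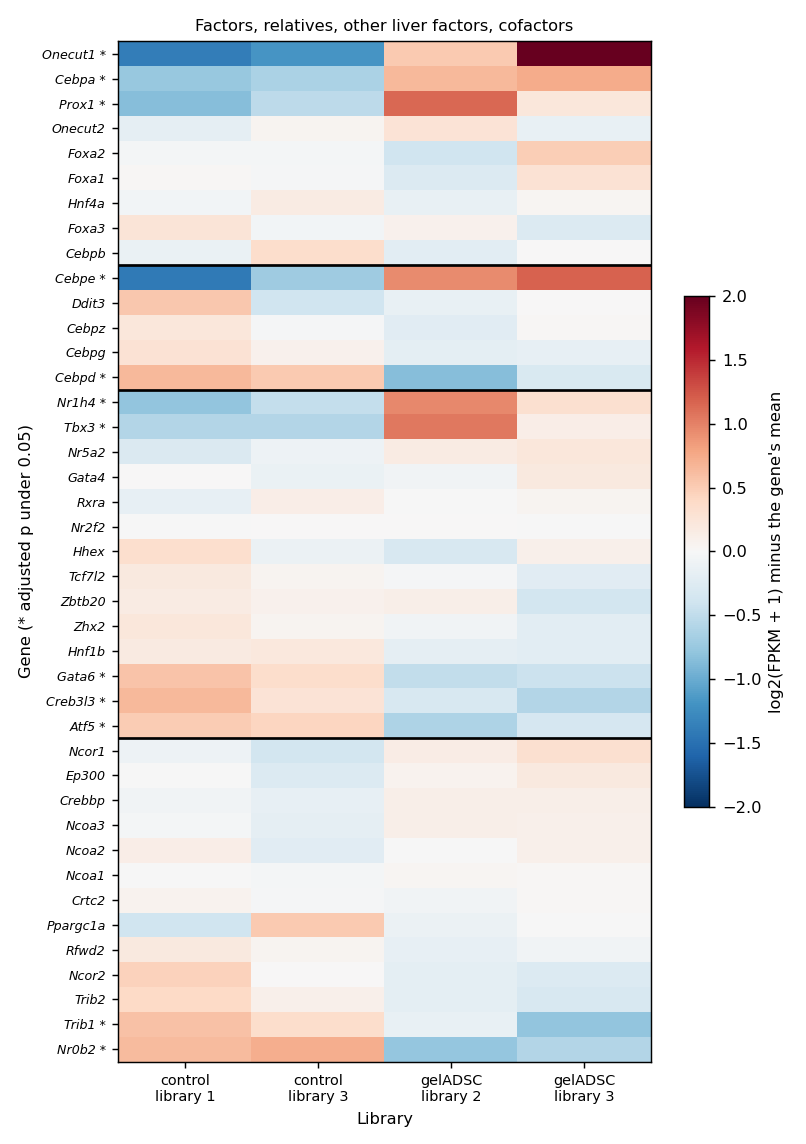
Log2(FPKM + 1) of each gene minus its own mean over the 4 libraries (colour scale, rows are genes, columns are libraries), for the 9 factors, their relatives, other liver transcription factors (1 is not drawn) and cofactors, separated by black lines from top to bottom. An asterisk marks an adjusted p under 0.05, which 3 of the 9 factors, 2 relatives, 5 other factors and 2 cofactors reached.

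Genes known to be bound or driven by these factors held calls in both directions. Together the target lists held 50 tested genes, of which 16 were called higher and 9 lower, with a median log2 change of 0.37. Among all tested genes 6.92% were called higher and 17.5% lower, with a median of -0.25. The share of targets called lower was thus near the all-gene share, and the share called higher was above it. The lists were chosen with earlier results of these data known, so this is a description only. Of the 50 target genes 9 stand on more than 1 list, so the lists are not independent. Of 21 HNF4A targets 8 rose and 4 fell (median 0.23), while Hnf4a itself did not pass the test. Cyp8b1, the sterol hydroxylase needed to make cholic acid, read 0.412 and 0.396 FPKM in control and 133 and 27.1 FPKM in gelADSC. Otc, the urea cycle enzyme ornithine transcarbamylase, read 26.2 and 22.7 FPKM in control and 98.8 and 124 FPKM in gelADSC. Apoa4, an apolipoprotein, was the furthest down, with 6384 and 4843 FPKM in control and 1049 and 1090 FPKM in gelADSC. Dio1, which activates thyroid hormone, rose with a log2 change of 2.08. The limma adjusted p was 0.000631 for Cyp8b1, 0.00039 for Otc, 0.000599 for Apoa4 and 0.00127 for Dio1, and all 4 passed in all 11 alternatives. The counts were 7 and 2 with either scaling, and 4 and 2 without control library 1.

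Of 15 FOXA targets 3 rose and 3 fell, with a median of 0.31. Leaving out control 1 gave 1 higher and 3 lower, leaving out control 3 gave 5 and 2, and leaving out gelADSC 3 gave 5 and 4. Igfbp1, a stress-induced binding protein of insulin-like growth factors, read 1389 and 699 FPKM in control and 102 and 117 FPKM in gelADSC (limma adjusted p = 0.000491). Afp, which encodes alpha-fetoprotein, read 49.5 and 52.5 FPKM in control and 4.11 and 3.74 FPKM in gelADSC (log2 change -3.40, SE 0.19, limma adjusted p = 2.82e-05). Slc10a1, the bile acid uptake transporter, rose with a log2 change of 2.58 (limma adjusted p = 0.000172). These 3 passed in all 11 alternatives. G6pc, the last enzyme of glucose release, was called higher (limma adjusted p = 0.0463) but read 10.3 and 54.0 FPKM in the controls, and its call was lost in 6 of 11 alternatives, without control library 1 among them (adjusted p up to 0.258).

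Of 11 metabolic C/EBP targets 4 rose and 3 fell, with a median of 0.23, beside the higher Cebpa. Adh1, alcohol dehydrogenase, read 358 and 696 FPKM in control and 2172 and 1928 FPKM in gelADSC (log2 change 2.03, limma adjusted p = 0.00338). Arg1, liver arginase, had a lower level in gelADSC, by a log2 change of -1.33 (limma adjusted p = 0.00446), and Hamp, the iron hormone hepcidin, with -1.42 (limma adjusted p = 0.0294). The call of Adh1 was lost without a filter (adjusted p = 0.0505), that of Arg1 with median ratio scaling (0.0579) and that of Hamp in 6 of 11 alternatives, among them those that left out control 1, control 3 or gelADSC 2 (adjusted p up to 0.243). Median ratio scaling left 2 higher and 0 lower, quantile normalization 2 and 1, and the omission of control library 1 left 1 and 2.

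Of 12 acute phase C/EBP targets 2 rose, Hpx and Crp, and 1 fell, Orm3, with a median of 0.14. Hpx, the heme-binding hemopexin, read 2677 and 4462 FPKM in control and 13185 and 7788 FPKM in gelADSC (limma adjusted p = 0.0186). Orm2, an acid glycoprotein, read 176 and 212 FPKM in control and 2052 and 333 FPKM in libraries 2 and 3 of gelADSC and did not pass (limma adjusted p = 0.0536). Orm1, Orm2 and Orm3 are close paralogues in sequence, and how reads were divided among them is uncertain. The calls of Hpx and Crp were lost when control library 1 was left out (adjusted p up to 0.200 and 0.0991), and that of Orm3 in 5 of 11 alternatives, with control library 1 or 3 left out among them. The list held 0 calls when control library 1 was left out and 7 when gelADSC library 3 was. Median ratio scaling gave 1 higher and 0 lower, quantile normalization 2 and 0.

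Of 8 ONECUT1 targets 3 rose and 1 fell, with a median of 0.81. The hydroxylase that opens the bile acid pathway, Cyp7a1, read 0 and 0.0132 FPKM in control and 56.9 and 15.0 FPKM in gelADSC (log2 change 4.92, limma adjusted p = 0.000527). Its level was higher in gelADSC library 2 than in library 3, the reverse of Onecut1. Its call held in all 11 alternatives. G6pc was also among the genes called higher, and Tat, a tyrosine catabolic enzyme, the gene called lower, with 598 and 1162 FPKM in control and 364 and 388 FPKM in gelADSC (limma adjusted p = 0.0295). The call of Tat was lost in 4 of 11 alternatives, without control library 3 among them (adjusted p up to 0.213). With either scaling the counts were 2 and 0, and they were 2 and 1 with control 1 left out, 4 and 0 with control 3 left out, and 4 and 2 with gelADSC 3 left out.

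**Figure D5:**
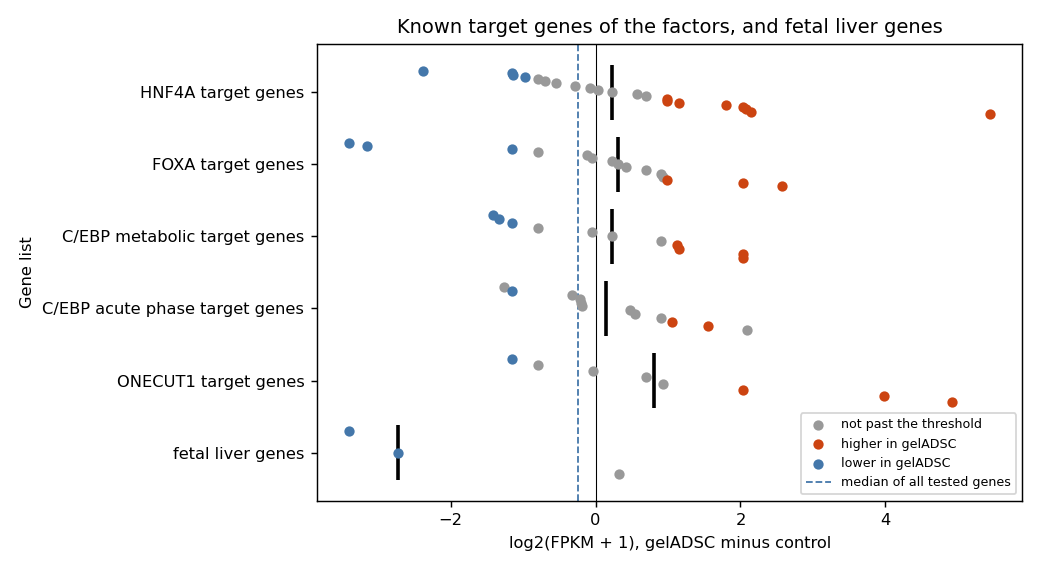
Log2 change (gelADSC mean of log2(FPKM + 1) less the control mean) of each tested gene (points) on the target lists and the fetal liver list, with a thick line at each list's median and a dashed line at the median of all tested genes, -0.25. Every target list holds genes called higher and genes called lower, and both called fetal genes, Afp and Cd24a, lie below -2.

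Genes of the fetal liver, largely silent in the adult organ, were mostly at very low levels. Of 10 on the list 3 were tested, 2 fell and 0 rose (0 higher also at an unadjusted limma p under 0.05). Afp is given above, and Cd24a, a surface protein of hepatoblasts and ducts, read 20.3 and 19.6 FPKM in control and 2.35 and 1.97 FPKM in gelADSC (log2 change -2.73, SE 0.20, limma adjusted p = 0.000112). Lin28b was listed at 0 in all 4 libraries. Markers of mesenchymal stromal cells, the kind of cell ADSC are, summed to 21.3 and 15.7 FPKM in control and 24.4 and 20.8 FPKM in gelADSC. Dpp4 was the largest part, with 8.70 and 11.0 FPKM in control and 13.2 and 13.5 FPKM in gelADSC. The donor of the ADSC is not given, so whether their transcripts would appear under mouse symbols is unknown. The part of ADSC in these markers was not tested. Of 4 such markers tested 0 were called in either direction, and 0 had an unadjusted limma p under 0.05, while 1 was called higher without gelADSC library 3.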

How the data were processed

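RNA of 4 mouse liver samples was sequenced after extraction with an RNeasy kit and preparation with a stranded TruSeq kit for mRNA, per the labels' protocols. The authors deposited 1 table with 1 value per gene symbol and library. The deposited values were taken as FPKM, since the header names no unit, Cufflinks 2.2.1 stands in the submitters' processing notes and the values are not whole numbers. The notes also name Trimmomatic 0.38, TopHat2 2.1.1 and the human build hg19, which cannot hold mouse genes, so the build used is unclear. Columns name the group only, since their numbers differ from the sample titles.

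Values were used as deposited, as log2(FPKM + 1), for the 11070 genes whose mean reached 1 FPKM. Groups were compared with limma (version 3.58.1, R 4.3.3, trend option on), which was tested on simulated data. The members and lists were chosen with earlier results of these data known, and lists are described by counts and medians without a set test. Of 135 list symbols 134 were found, Cop1 under its synonym Rfwd2. Named are all members, up to 4 called genes per list by size of change (for markers also the 2 highest; some list genes are counted but not reported here by name), and the 3 genes nearest in profile to each called member. Genes named outside this rule (overlapping genes, Orm2, Ass1, Flt4, Lin28b, Ccl21a, Krt7, Krt19, Cfd, Adipoq, Plin1, Lep and Retn and the uncalled C/EBP relatives) were chosen after their values were seen. Start regions are from RefSeq (GRCm38.p6), overlaps from GENCODE M21. The 11 alternatives changed the pseudocount (0.1 or 5), the filter (none, or a mean of at least 5), the scaling (median ratio or quantile) and the trend, or left out 1 library.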

Additional observations from a re-analysis of the deposited data

How the results depend on the processing

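Of the 9 factors, the 3 called higher kept their direction under all 11 alternatives, and 0 others were called under any. The number called higher was 1 with no filter and 1 to 3 with 1 library left out. Where 1 library of a group was left out, its partner was assumed to vary like the other group. Uncalled log2 changes that turned sign were those of Hnf4a (0.17 by median ratio scaling, 0.010 by quantile normalization), Foxa3 (0.090 and 0.076 by the same) and Cebpb (0.072 and 0.049 by the same, and -0.46 to 0.030 with 1 library left out). With 1 library left out, Foxa1 ranged from -0.27 to 0.30, Foxa2 from -0.36 to 0.53 and Onecut2 from -0.080 to 0.35. Over all genes 766 were higher and 1936 lower (28.3% of calls higher), 952 and 948 by median ratio scaling (50.1%), 928 and 1003 by quantile normalization (48.1%), and 525 and 730 when unfiltered (41.8%). Leaving out 1 library gave 303 to 775 higher and 331 to 1708 lower, lowest without control library 1. Calls per list in either direction, with no filter, were 1 of the relatives, 1 of the other liver factors, 1 cofactor, 2 metabolic and 0 acute phase C/EBP targets and 2 ONECUT1 targets. By median ratio scaling they were 2 other liver factors, 2 metabolic and 1 acute phase C/EBP targets and 2 ONECUT1 targets, and by quantile normalization 3 other liver factors, 3 metabolic C/EBP targets and 2 ONECUT1 targets. A mean of at least 5 left 1 relative and gave 5 acute phase targets. With 1 library left out the calls were 1 to 2 relatives, 0 to 4 other liver factors, 1 to 2 cofactors, 6 to 12 HNF4A targets, 4 to 9 FOXA targets, 3 to 9 metabolic and 0 to 7 acute phase C/EBP targets. The cause of these shifts was not tested. The Cebpa to Cebpb ratio difference ranged from 1.43 to 1.80 with 1 library left out. No paired analysis was possible because the columns of the 2 groups share 1 number only and do not match the numbers of the titles. Onecut1 had the fewest reads of the 9 factors, roughly 130 at its lowest value, in a control, with a counting error of about 8.7%.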
